A study of Homo sapiens with 8 samples.

Results

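The microRNAs (miRNAs, short RNAs that repress messenger RNAs) miR-148a, miR-148b and miR-152 form one seed family. Its members here were the 6 entries of the count table named for the 3p and 5p arms of these hairpins, chosen by name and not by their values, out of 2026 entries. All 6 had reads, and 5 passed the filter on low counts and were tested among 570 miRNAs.

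HCT116, a human colorectal cancer cell line, was grown without serum as floating spheroids, and the spheroid cells were sorted by antibody staining into CD44v6-positive and CD44v6-negative cells after removal of dead cells. CD44v6, a variant of the hyaluronan receptor CD44 made by alternative splicing, is used as a marker of stem-like colorectal cancer cells. Both groups thus share the line, the spheroid culture and the sort, and differ in the surface marker alone as far as the labels say. Each group held 2 samples, each of which joins 2 sequencing entries, and the labels name no separate cultures behind them. The p-values therefore refer to the spread among these samples, which may be technical.

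A miRNA hairpin is cut into a 5p and a 3p arm, and the arm that is loaded into an Argonaute protein guides it to messenger RNAs that pair with the seed, bases 2 to 8 of the mature miRNA. In this family the 3p arms are the guides and share their seed. Their best known target is DNMT1, the enzyme that copies DNA methylation onto newly made strands, and lowered miR-148a and miR-152 have been described in colorectal and other tumours.

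The 3p arms are shown because the shared seed defines the family, with the seed in capitals (RefSeq, GRCh38.p14, 5′ to 3′). Of the 6 members 5 matched the sequence table by name, and hsa-miR-148a-5p did not.
hsa-miR-148a-3p: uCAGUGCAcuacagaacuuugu
hsa-miR-148b-3p: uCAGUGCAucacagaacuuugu
hsa-miR-152-3p: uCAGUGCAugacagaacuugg
No other mature name among the 2370 in the table had this seed. Counting from 1 at the 5′ end, hsa-miR-148b-3p differed from hsa-miR-148a-3p at 2 of 22 positions, C9U and U10C. Over 21 shared positions hsa-miR-152-3p differed from hsa-miR-148a-3p at 3, which were C9U, U10G and U20G, and from hsa-miR-148b-3p at 2, which were C10G and U20G. The first 8 bases were thus identical in all of them. The number of mismatches allowed in the authors' mapping is not given in the sources used here. An exchange of reads between these arms could thus not be measured. It would weigh most on hsa-miR-152-3p, which made up 0.0773% to 0.694% of the family's 3p reads in a sample.

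The 5p arms are shown with their own seeds in capitals, because they do not belong to the seed family.
hsa-miR-148b-5p: aAGUUCUGuuauacacucaggc
hsa-miR-152-5p: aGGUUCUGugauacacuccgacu
The seed of hsa-miR-148b-5p was shared with miR-6874-3p alone in the table, and that of hsa-miR-152-5p with no other mature name.

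The hairpins lie on 3 chromosomes, and both GENCODE 29 and RefSeq give them the same spans. MIR148A lies at chr7:25949919-25949986 on the minus strand, outside any annotated gene. MIR148B lies at chr12:54337216-54337314 on the plus strand, in an intron of COPZ1 and of the overlapping AC078778.2. MIR152 lies at chr17:48037161-48037247 on the minus strand, in an intron of COPZ2. COPZ1 and COPZ2 encode paralogous zeta subunits of coatomer, the coat of transport vesicles between the Golgi and the endoplasmic reticulum. The hairpins are shown so that the arms can be seen in place, with the mature arms listed in the table in capitals.
MIR148A: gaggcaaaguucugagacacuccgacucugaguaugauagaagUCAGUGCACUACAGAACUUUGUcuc
MIR148B: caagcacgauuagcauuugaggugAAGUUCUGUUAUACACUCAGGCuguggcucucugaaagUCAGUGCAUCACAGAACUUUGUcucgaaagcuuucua
MIR152: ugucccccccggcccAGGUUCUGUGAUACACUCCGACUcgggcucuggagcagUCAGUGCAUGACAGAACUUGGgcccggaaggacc

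The negative samples held 7880631 and 4592278 reads and the positive samples 919802 and 154481 reads, a 51.0-fold span in depth that runs with the groups. All levels are in CPM, which counts a miRNA's reads in every 1000000, with TMM scaling between libraries. The 5 epithelial and intestinal markers (miR-200b-3p, miR-200c-3p, miR-141-3p, miR-192-5p and miR-194-5p) were read in every sample and summed to 17750 to 30037 CPM in the negative and 13128 to 16781 CPM in the positive samples. They did not move together. miR-141-3p stood at 11210 and 5346 CPM in the negative and 1940 and 1173 CPM in the positive samples. miR-192-5p stood at 1888 and 1322 CPM in the negative samples, and at 1032 and 4560 CPM in positive samples 1 and 2. miR-200b-3p, miR-200c-3p, miR-192-5p and miR-194-5p overlapped between the groups. The 4 blood markers summed to 1299 to 3006 CPM in the negative and 3403 to 3712 CPM in the positive samples, with miR-223-3p at 1 to 11 reads in each sample. Most of the sum was miR-486-5p, at 2975 and 1289 CPM in the negative and 3688 and 3111 CPM in the positive samples. miR-451a stood at 24.9 and 7.62 CPM in the negative samples, and at 15.1 and 281 CPM in positive samples 1 and 2. The 4 stroma and muscle markers summed to 862 to 1266 and 852 to 5029 CPM, with miR-1-3p and miR-133a-3p at 7 reads or fewer. Nearly all of the sum was miR-143-3p and miR-145-5p, which did not move together. miR-143-3p stood at 1084 and 665 CPM in the negative samples, and at 746 and 4972 CPM in positive samples 1 and 2. Its high value thus lay in the shallowest library alone. miR-145-5p stood lower in the positive samples, at 179 and 197 against 100 and 57.3 CPM. The endothelial miR-126-3p stood at 267 to 336 and 141 to 173 CPM, and the neural pair at 946 to 1980 and 438 to 837 CPM, with miR-124-3p at 0 to 12 reads. The liver miRNA miR-122-5p stood at 3.99 to 4.59 CPM in the negative samples and at 48.6 and 610 CPM in the positive samples. The part of these markers, of depth and of the single shallowest library in the family's values was not tested.

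Both arms of miR-148a and of miR-148b stood lower in CD44v6-positive than in CD44v6-negative cells, by 2.25- to 3.21-fold, whereas miR-152-3p did not move one way. With edgeR's quasi-likelihood test and Benjamini-Hochberg adjustment over all 570 miRNAs, none of these differences passed 0.05. The 4 arms of miR-148a and miR-148b did not overlap between the groups, which was also so, in the same direction, for 34.6% of all tested miRNAs. In bulk RNA, fewer cells carrying a miRNA and less of it per cell cannot be told apart.

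hsa-miR-148a-3p, the main guide of the family, was read 82680 and 63192 times in CD44v6-negative samples 1 and 2, and 4299 and 1171 times in CD44v6-positive samples 1 and 2. Scaled for depth these were 15819 and 11457 CPM against 4639 and 6103 CPM, so both positive samples lay well below both negative ones. The means were 13638 ± 3084 and 5371 ± 1035 CPM (SD, n = 2), and the abundance rank among all entries went from 15 in negative to 33 in positive cells. The log2 fold change (positive minus negative) was -1.34 ± 0.44 (SE), with an edgeR adjusted p of 0.125.

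hsa-miR-148b-3p, the guide from the COPZ1 intron, was next in abundance, with 12396 and 16917 reads in negative samples 1 and 2 and 998 and 257 reads in positive samples 1 and 2. Its levels were 2372 and 3067 against 1077 and 1339 CPM, again without overlap, with means of 2719 ± 492 and 1208 ± 186 CPM (SD, n = 2). Here negative sample 2 was the higher of its pair, whereas for miR-148a-3p it was the lower after TMM scaling. Without the TMM factors, 0.663 and 1.20 in negative samples 1 and 2, sample 2 was the higher for both arms. The log2 fold change was -1.17 ± 0.45 (edgeR adjusted p = 0.144).

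hsa-miR-152-3p, the guide from the COPZ2 intron, was rare, with 280 and 62 reads in the negative and 37 and 5 reads in the positive samples. Its levels were 53.6 and 11.2 against 39.9 and 26.1 CPM, so that the positive samples lay between the negative ones. The counting interval of positive sample 2 alone ran from 8.46 to 60.8 CPM (95% exact Poisson, counting error only), which spans every other sample. The log2 fold change was 0.07 ± 0.87 (edgeR adjusted p = 0.958), and its sign depended on single libraries. It was 1.67 without negative sample 1, -0.49 without negative sample 2, -0.42 without positive sample 1 and 0.47 without positive sample 2. The counting intervals of the negative samples, 47.5 to 60.2 and 8.62 to 14.4 CPM, did not overlap, so these deeper samples differed beyond counting error.

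The 5p arms of miR-148a and miR-148b, the less abundant strands of these hairpins, stood at lower levels than their partners, with differences of similar size between the groups. hsa-miR-148a-5p had 1623 and 1357 reads in the negative samples and 89 and 21 in the positive samples, or 311 and 246 against 96.0 and 109 CPM. Its log2 fold change was -1.44 ± 0.52 (edgeR adjusted p = 0.135), and its groups did not overlap. hsa-miR-148b-5p had 1799 and 2455 reads against 112 and 24 reads, or 344 and 445 against 121 and 125 CPM. Its positive samples were nearly equal, and at -1.68 ± 0.51 (edgeR adjusted p = 0.117) its difference exceeded those of the other miR-148 arms by less than its standard error.

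hsa-miR-152-5p had 16 and 7 reads in the negative samples and 0 in both positive samples, and was too rare to be tested. The negative levels of 3.06 and 1.27 CPM lie under the 3.24 and 15.6 CPM that 3 reads, the upper limit allowed by a count of 0, make in positive samples 1 and 2. At the negative level 1.98 and 0.411 reads would be expected in the positive samples. No fold is given, since the depth cannot show a difference.

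**Figure D1:**
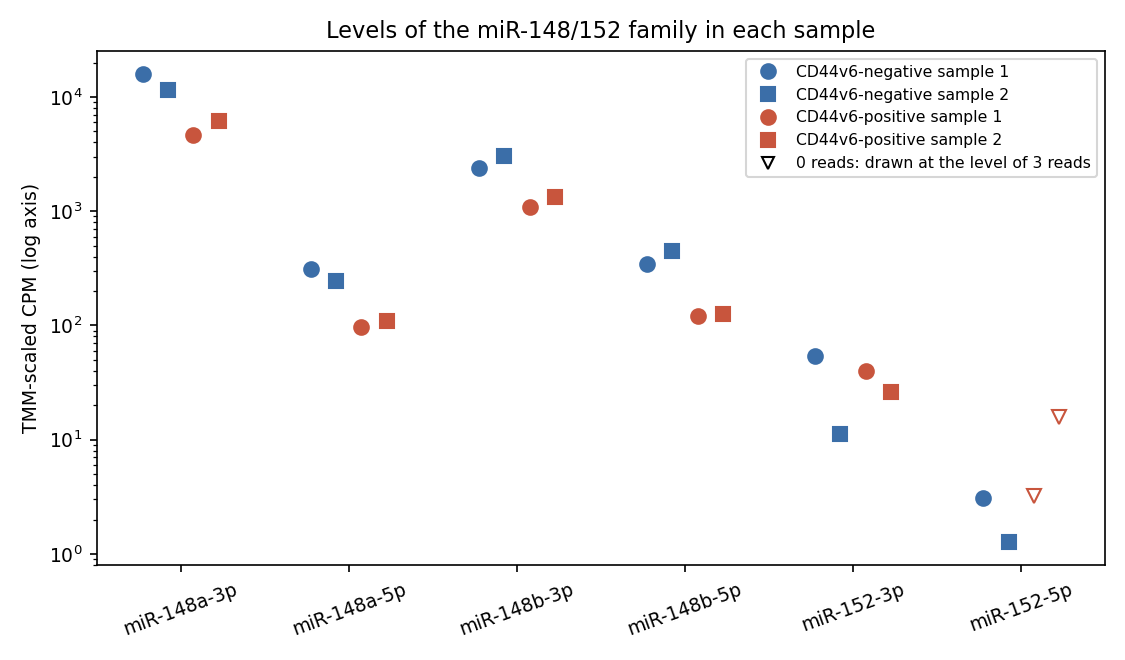
TMM-scaled CPM (log axis) of the 6 members in each of the 4 samples, with circles for sample 1 and squares for sample 2 of a group, and open triangles at the level of 3 reads where a sample had 0 reads. The 2 positive samples lie below both negative samples for the 4 arms of miR-148a and miR-148b, between them for miR-152-3p, and at 0 reads for miR-152-5p.

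Read against the whole table, differences as large as those of the miR-148 arms were common. With edgeR 0% of the 570 tested miRNAs had an adjusted p under 0.05, and the smallest adjusted p over all was 0.0787. At an unadjusted p under 0.05 all 4 miR-148 arms were lower (p of 0.0157 to 0.0379), as were 100 tested miRNAs or 17.5%, while 74 were higher. The median log2 fold change of all tested miRNAs was -0.31, and the miR-148 arms lay 0.86 to 1.38 below it, at log2 differences from that median of -1.04, -1.14, -0.86 and -1.38 for miR-148a-3p, miR-148a-5p, miR-148b-3p and miR-148b-5p. With no filter on low counts the median of the 1510 miRNAs with a read was -1.55, and the log2 differences from it were then -0.25, -0.32, -0.04 and -0.53. Between 18.9% and 28.6% of tested miRNAs had a still lower log2 fold change than each of these arms. DESeq2 on the same filtered counts called 75 miRNAs, 13.2%, at an adjusted p under 0.05, and none of the 5 tested members, of which miR-148b-5p came nearest at an adjusted p of 0.0668. limma-voom called 4 miRNAs and no member.

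**Figure D2:**
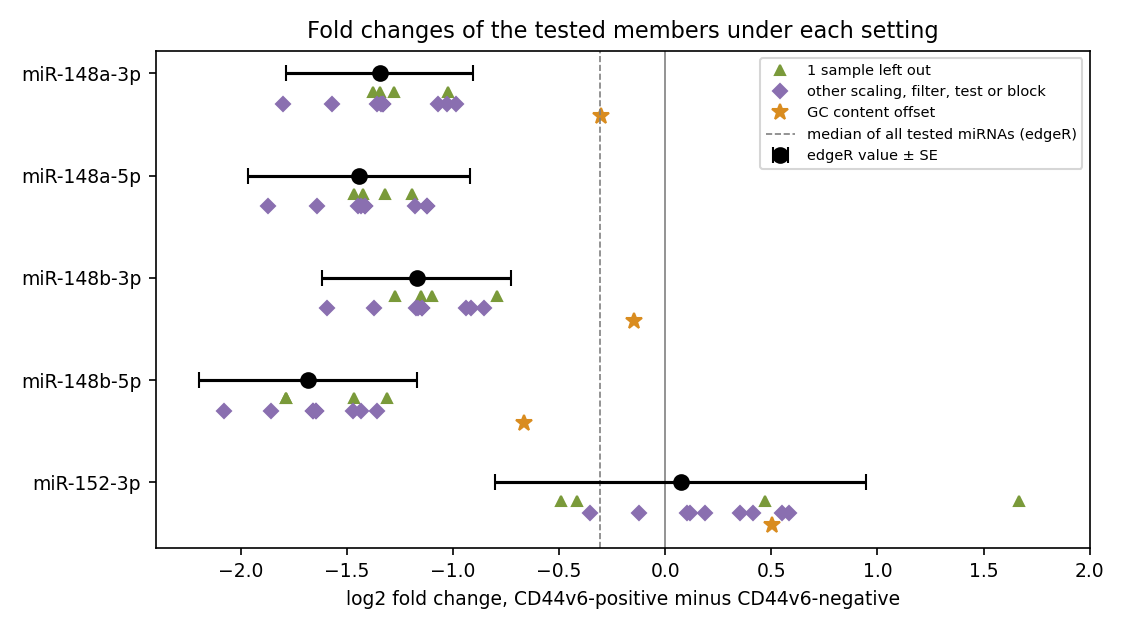
Log2 fold change (positive minus negative) of the 5 tested members, as the edgeR value with its standard error (black) and the values with 1 sample left out, under other scalings, filters, tests or the replicate block, and with a GC content offset. The miR-148 arms stay below 0 in every setting drawn, nearest to 0 with the GC offset where that could be fitted, while miR-152-3p falls on both sides of 0.

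The summed level of the 6 entries was 18902 and 15228 CPM in the negative and 5973 and 7702 CPM in the positive samples. Without TMM scaling the entries made up 1.25%, 1.83%, 0.602% and 0.957% of all reads in that order. The order of the 2 negative samples thus depended on the scaling, while both positive samples were lower either way. On the log2 scale the positive mean was 1.32 lower (log2 difference -1.32), against a pooled SD of 0.24 between samples of a group. This sum mostly follows miR-148a-3p.

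Ratios within a library do not depend on scaling between libraries. In the summed reads of the 3p arms, miR-148a-3p took 86.7% and 78.8% in the negative and 80.6% and 81.7% in the positive samples, and miR-148b-3p took 13.0% and 21.1% against 18.7% and 17.9%. The positive samples lay between the negative ones for both, so the balance of the miR-148 paralogs differed more between the negative samples than between the groups (exact permutation p = 1 for each, two-sided). Reads of miR-148a-3p per read of miR-148b-3p were 6.67 and 3.74 in the negative and 4.31 and 4.56 in the positive samples. The share of miR-152-3p was 0.294% and 0.0773% in the negative and 0.694% and 0.349% in the positive samples, without overlap. The exact binomial 95% interval of positive sample 2, from 0.113% to 0.812%, includes the negative sample 1 value, so this order is not firm. With 2 samples against 2 the smallest two-sided p of the exact permutation test is 0.333, which the share of miR-152-3p reached.

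The proportion of the miR-148a arms differed little between the groups. There were 50.9 and 46.6 reads of the 3p arm per read of the 5p arm in the negative samples, and 48.3 and 55.8 in the positive samples. With 0.5 reads added to each arm, the log2 ratio was 5.61 ± 0.09 in negative and 5.68 ± 0.13 in positive cells (SD, n = 2), a difference of 0.07 that is smaller than the spread between samples (exact permutation p = 0.667, two-sided). The 5p arm made up 1.93%, 2.10%, 2.03% and 1.76% of the reads of both arms in negative samples 1 and 2 and positive samples 1 and 2.

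The 5p arm of miR-148b took a smaller share in both positive samples. The 5p arm made up 12.7% of the reads of both arms in each negative sample, and 10.1% and 8.54% in positive samples 1 and 2. The exact binomial 95% interval ran from 8.38% to 12.0% in positive sample 1 and from 5.55% to 12.4% in positive sample 2, against 12.1% to 13.2% and 12.2% to 13.1% in the negative samples, so positive sample 1 overlapped neither negative interval and positive sample 2 overlapped both. The log2 ratio of the 3p to the 5p arm was 2.78 in both negative samples and 3.15 and 3.39 in the positive samples, 0.49 higher on average, with the smallest exact permutation p that the design allows (p = 0.333, two-sided). Whether miR-148b differs from miR-148a in this respect was not tested. For miR-152 the 5p arm was 5.41% and 10.1% of both arms' reads in the negative samples, and its 0 of 37 and 0 of 5 reads in the positive samples allow up to 9.49% and 52.2%.

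**Figure D3:**
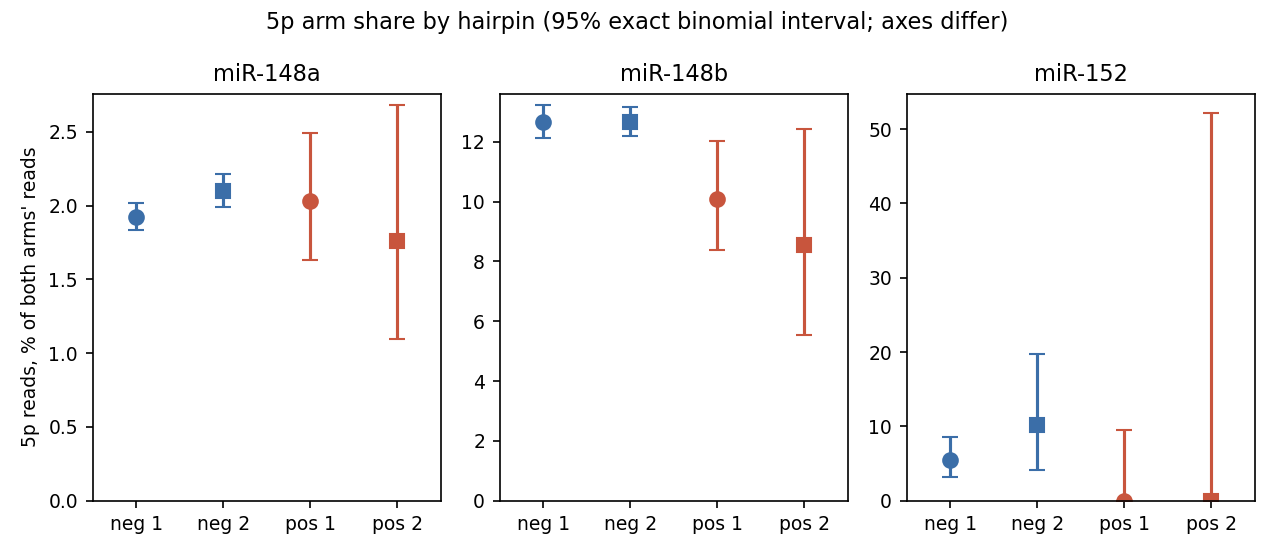
Share of 5p reads among the reads of both arms (%, each panel with its own axis from 0) for miR-148a, miR-148b and miR-152 in each sample, with 95% exact binomial intervals that cover counting error only. The share is level for miR-148a, lower in both positive samples for miR-148b (10.1% and 8.54% against 12.7%), and too thinly read to compare for miR-152.

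Across miRNAs the fold change ran with base composition. Over the 497 tested miRNAs with a listed mature form (87.2% of those tested), the Pearson correlation of GC content and log2 fold change was 0.457 and Spearman's rho 0.503, a description across miRNAs that share the same 4 libraries. miR-148a-3p, miR-148b-3p and miR-148b-5p each had a GC content of 40.9%, miR-152-3p of 47.6% and miR-152-5p of 47.8%, against a median of 50.0% over tested miRNAs. The 108 tested miRNAs with a GC content above 35% and below 45%, a window chosen after seeing the data, had a median log2 fold change of -1.35, about that of the miR-148 arms. With each sample's trend on GC content as an offset in the edgeR fit, the log2 fold change was -0.30 ± 0.44 for miR-148a-3p, -0.15 ± 0.47 for miR-148b-3p, -0.66 ± 0.54 for miR-148b-5p and 0.50 ± 0.85 for miR-152-3p, with adjusted p of 0.714, 0.877, 0.493 and 0.748. miR-148a-5p had no listed mature form and was left out of that fit.

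**Figure D4:**
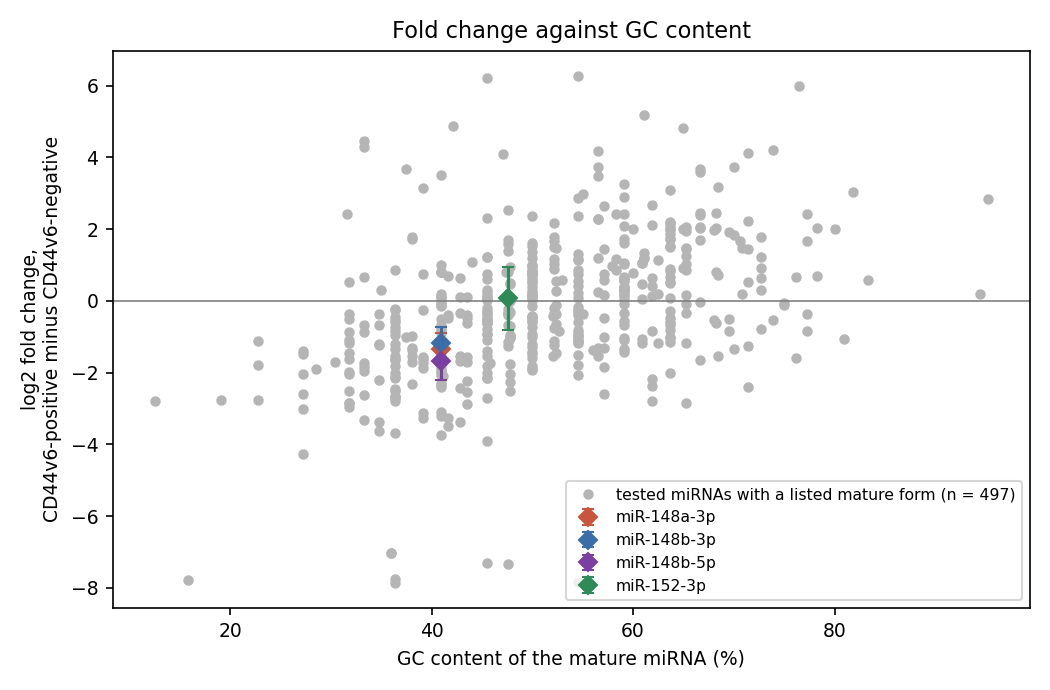
Log2 fold change (positive minus negative) against GC content of the mature miRNA (%) for the 497 tested miRNAs with a listed mature form (grey), with the 4 tested members among them as diamonds with standard errors. The miR-148 arms, at 40.9% GC, lie within the cloud of grey points of like GC content, whose median between 35% and 45% is -1.35.

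In a list of 10 other miRNAs reported to target DNA methyltransferases, most also had lower values in positive cells. This list was fixed with earlier results of these data known, and several of its names belong to the miR-29 family. Its counts thus describe these 10 alone. All 10 fixed for this list were tested, 8 had a lower and 2 a higher value in positive cells, none passed with edgeR, and 6 were lower without overlap. Over all tested miRNAs 316 had a lower and 254 a higher value, and 34.6% were lower without overlap. The list's median log2 fold change was -1.07, against -0.31 over all tested miRNAs. miR-29a-3p, which targets DNMT3A and DNMT3B, stood at 10632 ± 1191 CPM in negative and 3402 ± 1634 CPM in positive cells (SD, n = 2), and its log2 fold change was -1.64 ± 0.51. miR-101-3p, better known for EZH2, had -2.62 ± 0.51 (edgeR adjusted p = 0.0787). miR-221-3p had -0.01 ± 0.86 and miR-143-3p 1.71 ± 0.88, and both overlapped between the groups. GC content was 40.9% for miR-29a-3p and 33.3% for miR-101-3p, against 47.8% for miR-221-3p and 47.6% for miR-143-3p. miR-185-5p, at 50% GC, had -1.94 ± 0.61, with 32 and 6 reads in the positive samples. miR-342-3p, at 52.2% GC, had -0.35 ± 0.57. miR-126-3p and miR-194-5p, each at 45.5% GC, had -0.94 ± 0.51 and 0.74 ± 0.65. The part of GC content in this list was not tested.

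Bases 3 to 8 of the family's 3p arms, AGUGCA, also stand in the first 8 bases of 10 other mature names in the table, of which 8 are entries of the count table. Most belong to the miR-130/301/454 family, in which these letters stand 1 base nearer to the 5′ end, as in the abundant miR-130b-3p (letters in capitals).
hsa-miR-130b-3p: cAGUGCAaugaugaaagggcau
Of the 8 entries 5 were tested and none passed with edgeR, 3 had lower and 2 higher values, and their median log2 fold change was -1.22. miR-301a-3p (-1.74 ± 0.68), miR-301b-3p (-1.56 ± 0.76) and miR-454-3p (-1.22 ± 0.47) were lower in both positive samples than in both negative samples, and the other 2 entries were higher without overlap, against 34.6% and 24.9% of all tested miRNAs. One of these was miR-130b-3p, at 759 and 778 CPM in the negative and 840 and 855 CPM in the positive samples (0.14 ± 0.45). The other, miR-4671-3p (1.79 ± 0.81), had 13 and 10 reads in the negative and 8 and 1 reads in the positive samples, so its order rests on few reads. Entries found to share these letters thus had values on both sides of 0. The 2 above 0 were either smaller than the SE or thinly read. miR-130a-3p, a tested entry named for the same family, did not match the sequence table by name, so these letters were not searched in it. Its log2 fold change was -0.71 ± 0.57, with overlap between the groups.

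Likeness of pattern was measured as the Euclidean distance of log2 CPM over the 4 samples, each miRNA centred on its own mean, among 227 other tested miRNAs with at least 10 reads in every sample. Within the family the arms of miR-148a were closest to each other (0.17), those of miR-148b stood 0.52 apart, and arms of different hairpins 0.56 to 0.71 apart. The nearest other miRNAs to miR-148a-3p were miR-335-3p (0.31), miR-378c (0.33) and miR-203a-3p (0.36), against a median distance of 1.71 in the pool. The same 3 were nearest to miR-148a-5p, at 0.20, 0.30 and 0.28. miR-148b-3p was nearest to miR-140-3p (0.19), miR-454-3p (0.30) and miR-339-5p (0.34), and miR-148b-5p to miR-30d-3p (0.27), miR-335-5p (0.39) and miR-141-5p (0.39). miR-152-3p had only 5 reads in positive sample 2 and was left out of this measure.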

How the data were processed

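Small RNA libraries were made with an Illumina kit from total RNA, per the labels' protocols. The submitters' processing notes name CASAVA 1.8.2, cutadapt 1.10, Bowtie 0.12.9 and DESeq2, and build GRCh38; how reads matching several miRNAs were counted is not given in the sources used here. The authors deposited raw counts per mature miRNA, 1 column per combined identity, and these counts were used. The deposited normalized table was not used.

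Counts were tested with edgeR 4.0.16 (quasi-likelihood, R 4.3.3) after TMM scaling and filterByExpr (minimum count 10, minimum total 15), adjusted by Benjamini-Hochberg over all 570 tested miRNAs, with a threshold of 0.05. Standard errors were taken as |log2 fold change|/√F. DESeq2 1.42.0 and limma-voom 3.58.1 were alternatives. The code was tested on simulated data. Arm ratios and shares used exact permutation tests over samples. All 6 members were named. From each comparison list the most abundant tested miRNAs were named, up to 4, with the 3 miRNAs nearest in pattern to each member. The family and lists were chosen with earlier results of these data known. Intervals and limits cover counting error only, as PCR reads are not independent molecules.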

Additional observations from a re-analysis of the deposited data

How the results depend on the processing

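The 4 miR-148 arms kept a negative log2 fold change under all alternatives that gave a value. Leaving out each sample in turn gave -1.38 to -1.02 (miR-148a-3p), -1.47 to -1.19 (miR-148a-5p), -1.28 to -0.79 (miR-148b-3p) and -1.79 to -1.31 (miR-148b-5p), and miR-152-3p from -0.49 to 1.67. miR-152-3p was also negative with no filter (-0.35) and with DESeq2 on all entries tuned to 0.05 (-0.12), an alternative chosen after seeing the data, as was the GC offset. In that DESeq2 run, which called 68 of 1510 entries, miR-148b-5p passed (-1.86, DESeq2 adjusted p = 0.0492). The cause of these moves was not tested. The median of all tested miRNAs moved by 0.34 with upper-quartile and 0.31 with total-count scaling, where the summed family level was -1.001 and -0.997 in log2. It moved by 0.23 with the 10 CPM filter and by -1.25 with no filter. In place of 0 calls there were 48 with total-count scaling, 77 with no filter, 75 with DESeq2 and 68 with DESeq2 on all entries, 4 with limma-voom, 1 with the GC offset, and 26 to 55 with 1 sample left out. With the replicate block there were 228 calls among the 570 tested miRNAs, so a call was common in that fit. Among them were miR-148a-3p (-1.34), miR-148a-5p (-1.45), miR-148b-3p (-1.17) and miR-148b-5p (-1.66). Their edgeR adjusted p were 0.000145, 0.00867, 0.00162 and 0.00124. A block and a group term leave hardly any residual degrees of freedom in so few samples. The samples share only a number: deviations of same-numbered samples correlated at 0.449 over tested miRNAs, with 2 pairs. The miR-152 arms had 5 and 0 reads in the shallowest sample.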
